A study of Sus scrofa with 3 samples.

Results

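The 10 genes described here encode proteins that seal and hold together neighbouring epithelial cells: the claudins CLDN1, CLDN3, CLDN4 and CLDN7, occludin (OCLN), zonula occludens 1 (TJP1), junctional adhesion molecule A (F11R), E-cadherin (CDH1), alpha-catenin (CTNNA1) and the epithelial cell adhesion molecule EPCAM. They were picked by name, and every array probe whose gene name or description gave one of them was used, which made 34 probes of the 43603 on the array and 10 genes of the 6549 that carried a symbol. The study treated PIE cells, a non-transformed line derived from the intestinal epithelium of an unsuckled newborn pig. Cells grown for 3 days on collagen received Lactobacillus jensenii TL2937 or Lactobacillus plantarum TL2766 for 48 h, were washed free of bacteria, and were then given ETEC PAMPs for 12 h, molecular patterns from enterotoxigenic E. coli that innate receptors sense. The groups are TL2937+ETEC, TL2766+ETEC and ETEC, the last without lactobacilli. Each is 1 culture hybridised to 1 one-colour Agilent porcine array, so no difference has a replicate check and no test was possible. All 3 cultures were challenged with ETEC PAMPs; unchallenged cells were not analysed here, so the comparisons show the lactobacilli in challenged cells and nothing of the challenge itself.

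In an epithelium the tight junction lies nearest the lumen. Claudins form its paracellular strands and set which ions pass, occludin joins those strands, junctional adhesion molecule A is an immunoglobulin-type receptor beside them, and zonula occludens 1 is the scaffold that ties them to actin. Below it, in the adherens junction, E-cadherin binds its counterpart on the next cell and alpha-catenin couples the cadherin and beta-catenin to actin. EPCAM is a surface protein of intestinal epithelium that binds claudin 7 and stabilises it. Pathogenic E. coli and lactobacilli are both known to act on this barrier in gut epithelial models.

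Signals are given as scaled intensity, the scanner's processed signal after each array was divided by its 75th percentile, in arbitrary units. Levels of different probes cannot be set against each other. A probe counts as measured where the scanner software called it well above background, and the dimmest probe so called had a scaled intensity of 11.6, 11.8 and 12.9 on the TL2937+ETEC, TL2766+ETEC and ETEC arrays. Between 60.9% and 62.5% of spots passed on each array, and the 75th percentile of signal lay between 459 and 503. Among the 1294 genes with 3 or more measured probes, the log2 differences of a gene's probes had a median SD of 0.0728 for TL2937+ETEC against ETEC, 0.0760 for TL2766+ETEC against ETEC and 0.0643 for TL2937+ETEC against TL2766+ETEC, with 95th percentiles of 0.275, 0.273 and 0.246. Another 25 measured probes had 5 spots each. With outlier spots kept, the SD of the log2 difference over their spots had medians of 0.106, 0.0785 and 0.0870, in the same order. The largest SDs over spots were 0.388, 0.698 and 0.524. A gene read by a single spot, such as CLDN1, carries this spot error. These spreads hold probe and spot error and no variation between cultures.

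Before any comparison, the label of the line was set against marker genes, because the junction genes depend on it. Of all 6549 genes with a symbol, 4940 were measured on all 3 arrays by their brightest probe. Of 12 epithelial markers listed, 8 had a probe and 2 of these were measured on all 3 arrays, KRT8 at 18.0, 23.9 and 19.9 and MUC1 at 223, 230 and 224 in TL2937+ETEC, TL2766+ETEC and ETEC. The summed scaled intensity of the epithelial markers was 313, 324 and 321. EPCAM's brightest probe, keratin 18 (KRT18) and keratin 20 (KRT20) were not well above background on any array, and villin (VIL1), a brush border protein, was at 8.27 in TL2937+ETEC, 14.2 in TL2766+ETEC and 21.5 in ETEC, below the call in the first of these. LGALS4, an intestinal galectin, was at 18.1 in TL2937+ETEC, 28.4 in TL2766+ETEC and 16.6 in ETEC, below the call in ETEC. All 9 endothelial markers listed had a probe, and 8 were measured on all 3 arrays. Their summed intensity was 181547, 185536 and 170680, and these sums compare the arrays within a list, not the lists with each other. VE-cadherin (CDH5), the cadherin of vascular endothelium, was at 56573, 55877 and 60391, and PECAM1 at 84015, 85368 and 86718 in the same order, while von Willebrand factor (VWF) was at 15.5, 13.8 and 22.7 and below the call in TL2766+ETEC. Of 16 fibroblast and mesenchymal markers, 12 had a probe and 11 were measured on all 3 arrays, with summed intensities of 580266, 602884 and 632419. Of 8 leukocyte markers, 6 had a probe and 2 were measured on all 3 arrays, with sums of 875, 896 and 784. These 2 were CD14 at 723, 741 and 623 and CD74 at 119, 126 and 128. The pan-leukocyte gene PTPRC was not well above background on any array. Of the epithelial markers with a probe, MUC1 alone was far from the detection limit. EPCAM, CDH1 and the keratins with a probe (KRT8, KRT18 and KRT20) were at or near background, against the labelled identity. The listed keratin genes KRT7 and KRT19 had no probe. The 10 genes are called junction genes below.

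**Figure D1:**
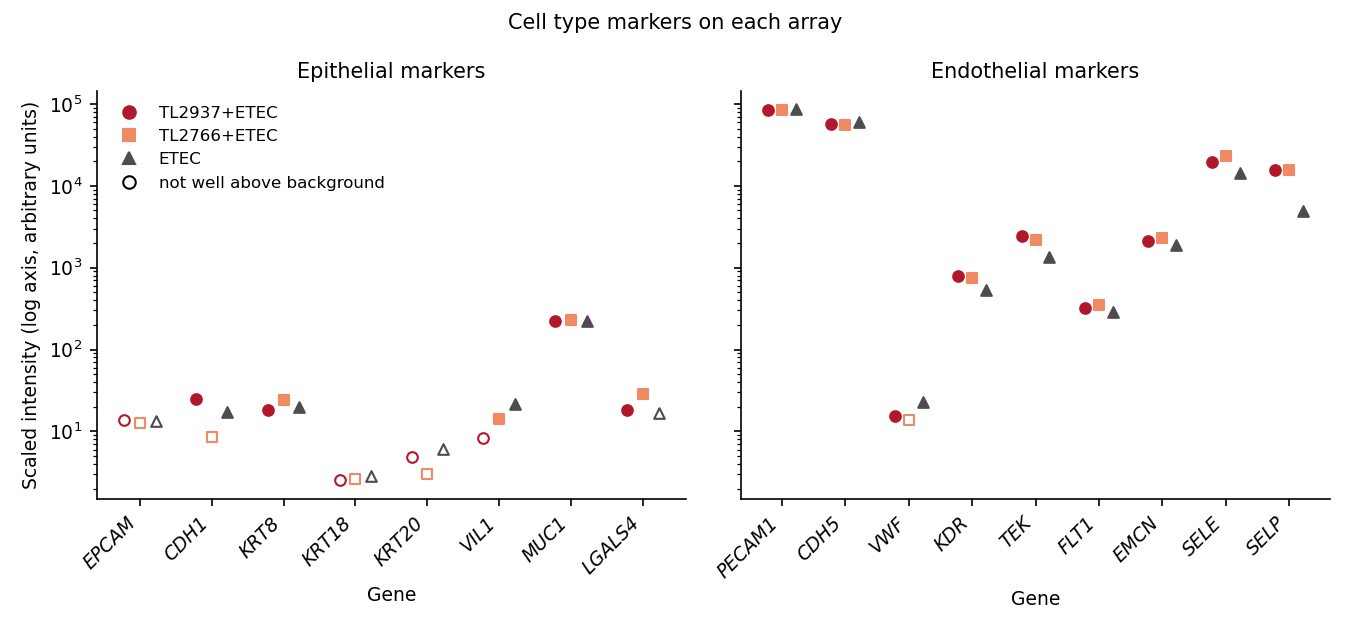
Scaled intensity (log axis, arbitrary units) of the epithelial markers and of the endothelial markers with a probe, on the TL2937+ETEC, TL2766+ETEC and ETEC arrays; open symbols were not well above background. 2 of 8 epithelial markers and 8 of 9 endothelial markers were measured on all 3 arrays.

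The junction genes differed in how many of their probes were detected. Of the 34 probes, 13 were measured on all 3 arrays, 18 on none, and 3 on 1 or 2 arrays. The 13 probes belong to 7 of the 10 genes: CLDN1, CLDN3, CLDN7, OCLN, TJP1, F11R and CTNNA1. Beside that, 4940 of all 6549 genes with a symbol were measured on all 3 arrays. CDH1 had a measured probe in TL2937+ETEC and ETEC, EPCAM in TL2937+ETEC, and CLDN4 on no array. Alpha-catenin, occludin, zonula occludens 1, junctional adhesion molecule A and claudin 1 had probes far from the detection limit, whereas the probes of CLDN3 and CLDN7 had intensities of at most 20.5.

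**Figure D2:**
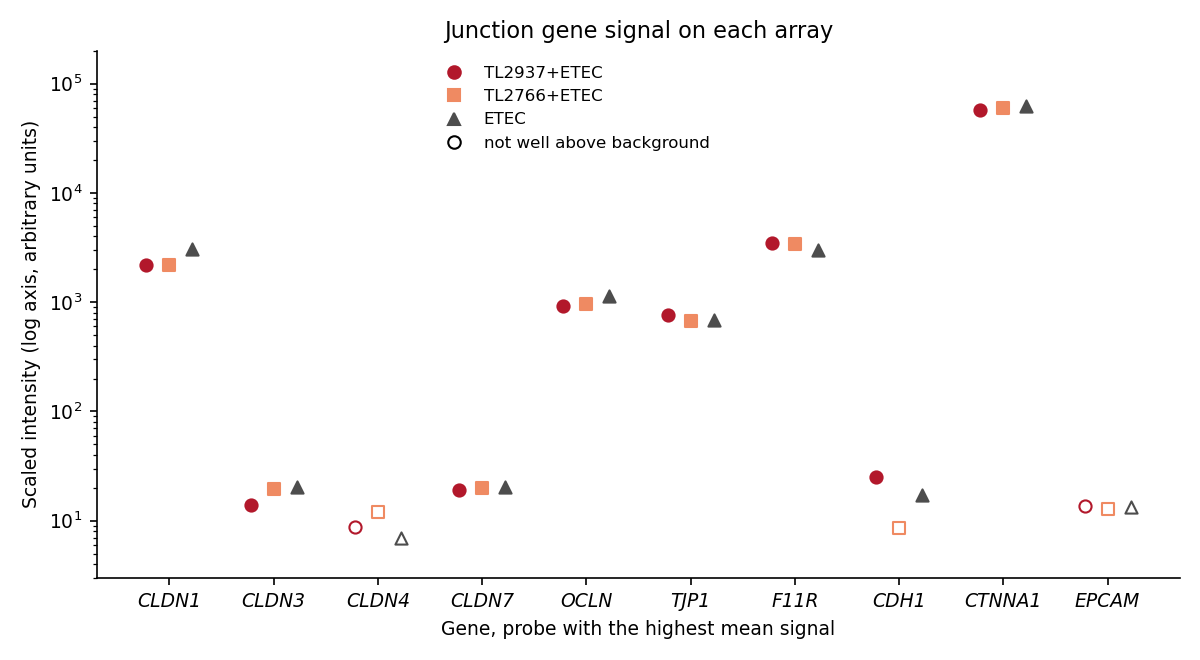
Scaled intensity (log axis, arbitrary units) of the brightest probe of each junction gene on the TL2937+ETEC, TL2766+ETEC and ETEC arrays, 1 culture each; open symbols were not well above background. CLDN1 sat at 2195 and 2192 with lactobacilli and at 3054 without, and CLDN4 and EPCAM were open on every array.

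Claudin 1 and occludin were lower after both lactobacilli, junctional adhesion molecule A was slightly higher after both, and alpha-catenin hardly differed. In TL2937+ETEC against ETEC, 3 of 8 measured junction genes were at least 1.2-fold lower (CLDN1, CLDN3 and OCLN), beside 12.3% of all 4993 measured genes. In the same comparison 1 of 8 was at least 1.2-fold higher (CDH1), beside 7.29% of all genes, and the other 4 lay within 1.2-fold. In TL2766+ETEC against ETEC, 1 of 7 was at least 1.2-fold lower (CLDN1), beside 8.82% of 4968 genes, and 0 were higher, beside 8.13%. The median log2 difference of the junction genes was -0.10 for TL2937+ETEC and -0.04 for TL2766+ETEC, where all measured genes had medians of -0.04 and 0.0013. No junction gene measured on both arrays of a comparison differed by 1.5-fold, while CDH1, measured on 2 arrays, has a larger bound given below. Beside that count of 0, 2.24% of all genes were 1.5-fold lower and 1.06% higher in TL2937+ETEC than in ETEC, 1.49% lower and 1.43% higher in TL2766+ETEC than in ETEC, and 1.02% lower and 0.359% higher in TL2937+ETEC than in TL2766+ETEC. Both comparisons share the ETEC array, so their values are given side by side and their likeness is not counted as a result.

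Claudin 1, a sealing claudin, had a scaled intensity of 2195 in TL2937+ETEC, 2192 in TL2766+ETEC and 3054 in ETEC. Both lactobacillus cultures were below the ETEC culture and next to each other. The log2 difference from ETEC was -0.48 in TL2937+ETEC and -0.48 in TL2766+ETEC, each 1.39-fold lower, and that between TL2937+ETEC and TL2766+ETEC was 0.0020. A difference at or below that of CLDN1 was found for 4.03% of all measured genes in TL2937+ETEC and 2.68% in TL2766+ETEC. The gene has a single probe with a single spot, so no second probe checks it. Its first 30 of 60 bases are shown because the largest difference common to both lactobacilli rests on this oligo:
CLDN1 probe, bases 1 to 30: cacattgctaaaaatgatgaggtcttattt
No other probe on the array shared a run of 15 bases with it on either strand.

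Occludin has 3 probes, and all of them were lower in both lactobacillus cultures. Probe 3, the brightest, had 922 in TL2937+ETEC, 967 in TL2766+ETEC and 1141 in ETEC. Probe 2 had 640.4, 692 and 875, and probe 1 had 143, 159 and 191, in the same order. For every probe the ETEC array was highest and the TL2937+ETEC array lowest. Relative to ETEC, the brightest probe differed by -0.31 on the log2 scale in TL2937+ETEC, which is 1.24-fold lower, and by -0.24 in TL2766+ETEC, which is 1.18-fold lower and short of the 1.2-fold mark. With the 75th percentile taken over detected probes alone, the difference in TL2937+ETEC was -0.2595, just inside 1.2-fold. Over the 3 probes the log2 difference averaged -0.39 ± 0.07 in TL2937+ETEC and -0.28 ± 0.05 in TL2766+ETEC (SD over probes, n = 3 probes of 1 culture each). Averaged over its probes, occludin thus passed 1.2-fold after either strain. Probes 3 and 2 are not independent readings, since they overlap by 23 bases, shown in capitals:
OCLN probe 3, bases 18 to 47: CCTTTTCATATTTCAGCTACTACgatagtg
OCLN probe 2, bases 1 to 30: CCTTTTCATATTTCAGCTACTACagatagt
Probe 1 shared at most 5 bases with either and showed log2 differences of -0.41 in TL2937+ETEC and -0.26 in TL2766+ETEC.

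The remaining claudins were at or under the edge of detection. Claudin 7, which partners EPCAM, was measured at 19.0, 19.9 and 20.5 in TL2937+ETEC, TL2766+ETEC and ETEC, with log2 differences from ETEC of -0.11 and -0.04. Claudin 3, another sealing claudin, had 13.9 in TL2937+ETEC, 19.6 in TL2766+ETEC and 20.2 in ETEC. TL2937+ETEC was the low array, 1.46-fold below ETEC and 1.41-fold below TL2766+ETEC, with log2 differences of -0.54 and -0.50. This difference is close to the detection limit, and with another background correction (normexp) it was -0.12 against either array. Claudin 4 had 8.82, 12.1 and 6.87 and was not well above background on any array. The probes of CLDN7 and CLDN4 are shown as examples of one that passed on all 3 arrays and one that passed on none:
CLDN7 probe: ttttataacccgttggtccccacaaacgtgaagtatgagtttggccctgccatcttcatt
CLDN4 probe: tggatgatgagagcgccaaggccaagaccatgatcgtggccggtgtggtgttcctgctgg
Neither shared a run of 15 bases with any other probe.

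Junctional adhesion molecule A was higher in both lactobacillus cultures with each of its 3 probes. Probe 1, the brightest, had 3447 in TL2937+ETEC, 3376 in TL2766+ETEC and 3027 in ETEC, log2 differences from ETEC of 0.19 and 0.16. Probe 2 had 215, 226 and 197, with log2 differences of 0.13 and 0.20. Probe 3, named here from its description, had 30.5, 35.8 and 25.8, with log2 differences of 0.24 and 0.48. Both comparisons share the ETEC array, so the 2 differences of a probe are not separate readings. The brightest probe stayed within 1.2-fold in both. Over the 3 probes the log2 difference averaged 0.19 ± 0.06 in TL2937+ETEC and 0.28 ± 0.17 in TL2766+ETEC (SD over probes, n = 3 probes of 1 culture each), so the dimmest probe carries the second average past 1.2-fold. The 3 probes share at most 5 bases, and the second is shown as a distinct reading of the gene:
F11R probe 2: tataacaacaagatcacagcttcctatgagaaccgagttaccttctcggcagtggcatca

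Zonula occludens 1 had 768 in TL2937+ETEC, 673 in TL2766+ETEC and 689 in ETEC. TL2937+ETEC was the high array, with log2 differences of 0.16 from ETEC and 0.19 from TL2766+ETEC, while TL2766+ETEC differed from ETEC by -0.03. All 3 differences are within 1.2-fold. They rest on 1 probe that the array's description assigns to the gene through a chimpanzee protein, over a small part of it. Of its 60 bases, 40 lie in runs of 15 or more shared, on either strand, with 4 other probes that were not named TJP1. The densest stretch of these runs is printed with the shared bases in capitals, since it limits what the signal can be credited to:
TJP1 probe, bases 31 to 60: gaagtTGTGGCTCGGATTTGATCCTTGGCC
How far other transcripts add to this signal was not tested.

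Among the adherens junction genes, alpha-catenin was bright and nearly level. Its probe 2 had 57731 in TL2937+ETEC, 59589 in TL2766+ETEC and 61799.6 in ETEC, and the other probes had 43592, 46674 and 48583, and 34312, 35988 and 37331. Every probe was highest in ETEC and lowest in TL2937+ETEC. With another normalization (cyclic loess) the brightest probe differed from ETEC by -0.02 in TL2937+ETEC and -0.04 in TL2766+ETEC. TL2937+ETEC then lay 0.02 above TL2766+ETEC, so the order of the lactobacillus arrays depends on the scaling. With the main scaling the differences from ETEC were small, averaging -0.13 ± 0.03 on the log2 scale in TL2937+ETEC and -0.05 ± 0.003 in TL2766+ETEC (SD over probes, n = 3 overlapping probes of 1 culture each, sharing 26 to 46 bases).

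E-cadherin, the defining adhesion receptor of epithelia, stayed near background. Its probe 1 had 25.1 in TL2937+ETEC, 8.63 in TL2766+ETEC and 17.2 in ETEC, and was not well above background in TL2766+ETEC. TL2937+ETEC was 1.46-fold above ETEC, a log2 difference of 0.54, and at least 2.13-fold above TL2766+ETEC, where the bound uses the dimmest detected signal of that array. TL2766+ETEC was at least 1.46-fold below ETEC. Signals of 13.8 on the TL2766+ETEC array (VWF) and 16.6 on the ETEC array (LGALS4) were still not called. Both exceed the dimmest detected signal of their array, so these bounds are approximate. With normexp background correction the log2 difference of TL2937+ETEC from ETEC was 0.20, under 1.2-fold. Probe 2 was not well above background on any array, at 9.06, 6.93 and 10.2, and so gave the gene no second measurement. It shared a run of 15 bases or more with 1 probe not named CDH1. Both probes are shown because they are all that the array holds for the gene:
CDH1 probe 1, bases 1 to 30: acttgaaaatattttaaaaatgcgatttcc
CDH1 probe 2: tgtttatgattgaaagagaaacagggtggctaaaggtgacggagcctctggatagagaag

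EPCAM has 18 probes, the most of the 10 genes, and was all but undetected. On the TL2937+ETEC array 2 of them were well above background, at 15.3 and 14.2, while the same probes had 11.3 and 3.02 in TL2766+ETEC and 12.3 and 11.1 in ETEC, not well above background. These give TL2937+ETEC at least 1.19-fold and 1.11-fold over ETEC and at least 1.30-fold and 1.21-fold over TL2766+ETEC. On the ETEC array a signal of 16.6 (LGALS4) was still not called, so these bounds lie within the range where the call itself varies. The other 16 probes were well above background on no array. The median over the 18 probes was 3.18 in TL2937+ETEC, 3.04 in TL2766+ETEC and 3.15 in ETEC. The array's 141 negative control spots all carry 1 probe, designed to match no transcript, so their spread is between spots, not sequences. They had medians of 2.67, 2.78 and 3.1 on these arrays and 95th percentiles of 3.17, 3.32 and 3.87. At or below that percentile lay 9 EPCAM probes in TL2937+ETEC, 12 in TL2766+ETEC and 14 in ETEC, and the software had put a substitute value for a signal near 0 in 9, 11 and 12 of the probes. EPCAM probes overlap in part, 22 of 153 pairs by 15 bases or more. The probe at 15.3 in TL2937+ETEC and probe A below each also shared such a run with 1 probe not named EPCAM. How far another transcript adds to their signal was not tested. These are 2 of those well above background on no array, at 3.49, 4.77 and 3.75 for the first and 2.37, 5.97 and 2.66 for the second, in the order TL2937+ETEC, TL2766+ETEC and ETEC:
EPCAM probe A: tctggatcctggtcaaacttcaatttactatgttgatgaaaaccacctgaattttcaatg
EPCAM probe B: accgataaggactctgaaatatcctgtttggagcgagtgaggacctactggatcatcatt
A signal not well above background sets a limit on these arrays and does not show that the transcript is absent.

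**Figure D3:**
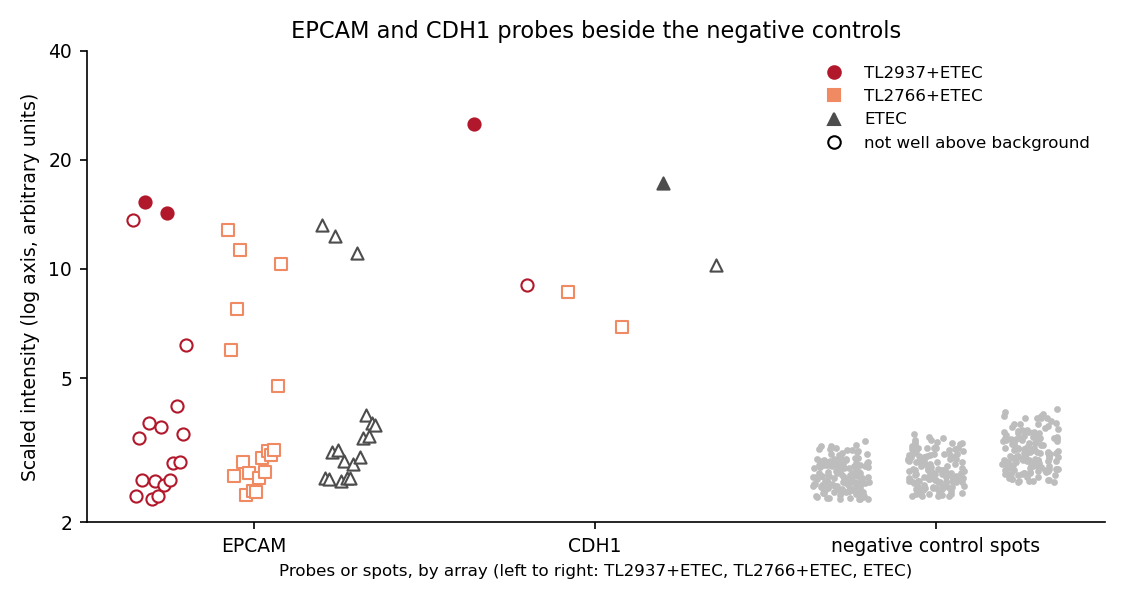
Scaled intensity (log axis, arbitrary units) of the 18 EPCAM probes, the 2 CDH1 probes and the 141 negative control spots on the TL2937+ETEC, TL2766+ETEC and ETEC arrays, left to right; open symbols were not well above background. EPCAM medians of 3.18, 3.04 and 3.15 lie beside negative control medians of 2.67, 2.78 and 3.1, over spots of 1 probe.

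The strains were next set against each other directly. In TL2937+ETEC against TL2766+ETEC, 1 of 7 measured junction genes was at least 1.2-fold lower (CLDN3), beside 7.31% of 5010 genes, and 0 were higher, beside 4.21%. The median log2 difference was -0.05, and that of all measured genes was -0.04. CLDN1 was level between the strains, as given above. By their brightest probes, OCLN (-0.07), CTNNA1 (-0.05), CLDN7 (-0.06) and F11R (0.03) all had log2 differences under 0.1 in size. Averaged over probes, the differences were -0.11 for OCLN, -0.07 for CTNNA1 and -0.09 for F11R. The F11R probes ranged from -0.23 to 0.03, so no single direction can be given for it. TJP1 was 0.19 higher in TL2937+ETEC. Apart from CLDN3 and the bounds for CDH1 and EPCAM, all of them near background, no junction gene differed by 1.2-fold between TL2937+ETEC and TL2766+ETEC.

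**Figure D4:**
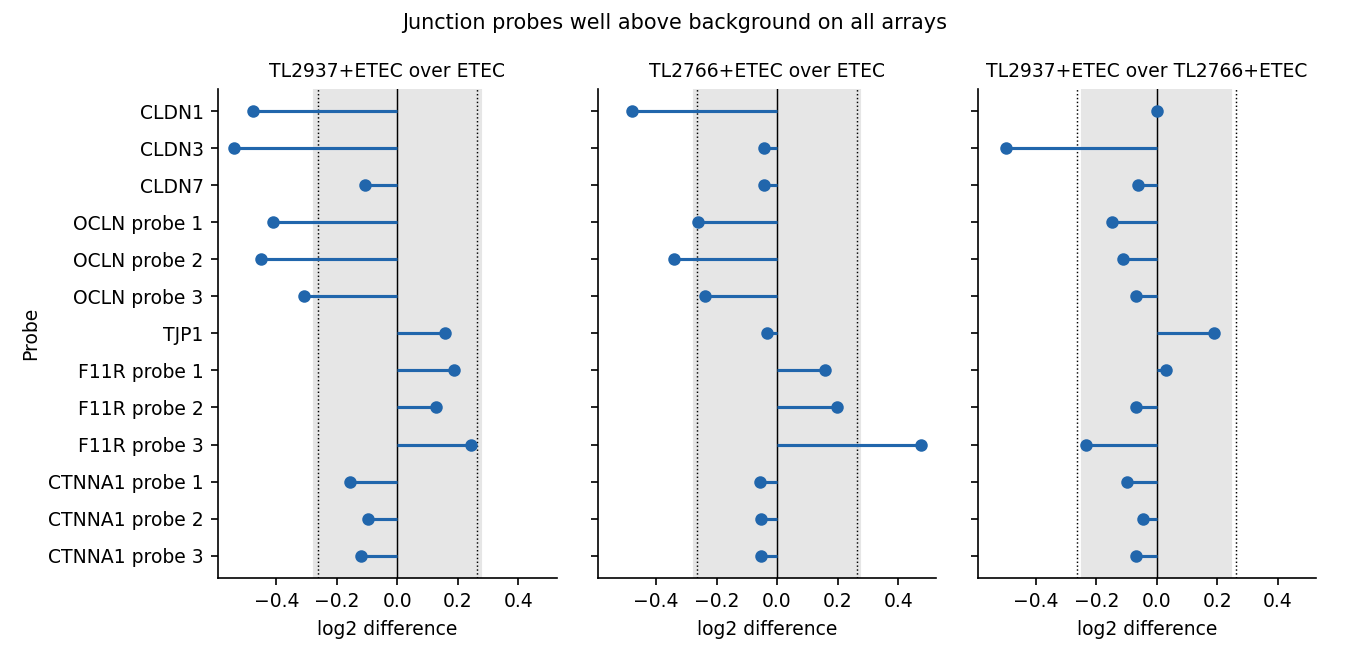
Log2 difference of each of the 13 junction probes measured on all 3 arrays, for TL2937+ETEC over ETEC, TL2766+ETEC over ETEC and TL2937+ETEC over TL2766+ETEC; dotted lines mark 1.2-fold and the grey band the 95th percentile of the SD among probes of 1 gene. The 3 OCLN probes lie left of 0 and the 3 F11R probes right of 0 in both comparisons with ETEC.

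Other junction genes were taken from 6 lists of related families. Of 93 listed genes 56 had a probe and 37 were measured on all 3 arrays. In TL2937+ETEC against ETEC, 7 of 38 measured genes were at least 1.2-fold lower, 5 were higher and 26 lay within 1.2-fold, with a median log2 difference of -0.06. In TL2766+ETEC against ETEC, 6 of 37 were lower, 3 were higher and 28 lay within, with a median of 0.01. The shares of all measured genes, as above, were 12.3% lower and 7.29% higher in TL2937+ETEC, and 8.82% and 8.13% in TL2766+ETEC. Between TL2937+ETEC and TL2766+ETEC 0 of the 37 genes measured on both arrays differed by 1.2-fold, beside 7.31% lower and 4.21% higher among all genes. Genes measured on 1 of these arrays are outside that count. Bounds past 1.2-fold were found for CLDN8, CLDN10, CLDN11 and CLDN18, described below, and for NECTIN1, named after its values were seen. NECTIN1 was at least 1.57-fold lower in TL2937+ETEC than in TL2766+ETEC, near background and with a bound as approximate as that of CDH1. The lists moved in no single direction, and the genes named from each are the up to 4 that differed most from ETEC.

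Vinculin, zyxin and alpha-actinin 1 were lower in TL2937+ETEC, and most of the other adherens junction genes lay within 1.2-fold. Of 12 measured genes of that list, 3 were at least 1.2-fold lower in TL2937+ETEC than in ETEC and 1 was higher; in TL2766+ETEC 1 was lower and 0 higher, to be read against the shares of all genes just given. Vinculin (VCL), which binds alpha-catenin under tension, had 29415 in TL2937+ETEC, 31688 in TL2766+ETEC and 41667 in ETEC, log2 differences from ETEC of -0.50 and -0.39. Its 5 probes ranged from -0.53 to -0.35 in TL2937+ETEC and from -0.39 to -0.18 in TL2766+ETEC, all below 0. Zyxin (ZYX), a protein of actin attachment sites, differed from ETEC by -0.35 in TL2937+ETEC and -0.12 in TL2766+ETEC, and alpha-actinin 1 (ACTN1), an actin crosslinker, by -0.30 and -0.18. NECTIN4 was 0.28 higher in TL2937+ETEC by its brightest probe, but its probes ranged from -0.28 to 0.28. Beta-catenin (CTNNB1), named after its values were seen because it pairs with alpha-catenin, had 125250 in TL2937+ETEC, 130117 in TL2766+ETEC and 134780 in ETEC, log2 differences of -0.11 and -0.05.

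The scaffold and polarity genes differed in both directions. Of 10 measured, 1 was lower and 2 higher than ETEC by 1.2-fold in TL2937+ETEC, and 3 were lower and 1 higher in TL2766+ETEC, where 12.3% and 7.29%, and 8.82% and 8.13%, of all genes did so. PRKCI, the atypical protein kinase C of the polarity complex, had 940.4 in TL2937+ETEC, 1000.4 in TL2766+ETEC and 1205 in ETEC, log2 differences of -0.36 and -0.27. AMOTL2, an angiomotin family member, differed by -0.23 in TL2937+ETEC and -0.41 in TL2766+ETEC. The probes of the scaffold MAGI1 disagreed in TL2766+ETEC, at -0.35 and 0.52.

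Among the other claudins and tetraspan proteins, 18 of 19 had a probe, 7 were measured on all 3 arrays and 7 on none. CLDN9 had 863 in TL2937+ETEC, 876 in TL2766+ETEC and 709 in ETEC, log2 differences of 0.28 and 0.31. CLDN2, a pore-forming claudin of the gut, had 153, 181 and 182, log2 differences of -0.25 and -0.01. CLDN12 differed by -0.21 and -0.09 and CLDN19 by 0.07 and 0.12. Claudin 5 (CLDN5), known from endothelial tight junctions and named after its values were seen, had 11842 in TL2937+ETEC, 13518 in TL2766+ETEC and 12619 in ETEC, within 1.2-fold. Claudins 10 and 11, also named after their values were seen, were well above background in TL2766+ETEC alone. CLDN11 had 11.7 in TL2937+ETEC, 40.5 in TL2766+ETEC and 14.1 in ETEC by the brightest of its 4 probes, which puts TL2766+ETEC at least 2.88-fold over ETEC and TL2937+ETEC at least 3.47-fold below TL2766+ETEC. Its other 3 probes were well above background on no array. CLDN10 had 3.65, 20.8 and 2.75, at least 1.62-fold higher in TL2766+ETEC than in ETEC and at least 1.80-fold lower in TL2937+ETEC than in TL2766+ETEC. The other claudins measured on 1 or 2 arrays, CLDN8 and CLDN18, went another way. CLDN8 had 17.3 in TL2937+ETEC, 12.5 in TL2766+ETEC and 21.1 in ETEC, at least 1.68-fold lower in TL2766+ETEC than in ETEC. CLDN18 had 17.6, 9.42 and 12.2, at least 1.49-fold higher in TL2937+ETEC than in TL2766+ETEC. The bounds of these claudins have the limit given for CDH1. Of the adhesion receptors, 2 were measured: JAM3, related to F11R, differed by -0.25 and -0.27, opposite in sign to F11R, and ESAM had 19415, 20308 and 19141.

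In the gap junction list, 4 of 11 genes had a probe and all 4 were measured. In TL2937+ETEC 2 were at least 1.2-fold lower than in ETEC, 1 was higher and 1 lay within 1.2-fold. In TL2766+ETEC 1 was lower, 1 was higher and 2 lay within. Beside these counts, 12.3% of all genes were lower and 7.29% higher in TL2937+ETEC, and 8.82% and 8.13% in TL2766+ETEC. The connexin genes GJA1 and GJA4 differed from ETEC by -0.32 and -0.26 in TL2937+ETEC and by -0.25 and -0.52 in TL2766+ETEC. GJA5, another connexin gene, was higher, by 0.36 and 0.27. GJB5 differed by 0.20 and 0.13 near the detection limit. Of 14 desmosome genes, 4 had a probe and 2 were measured on all 3 arrays, desmoplakin (DSP) with log2 differences of 0.11 and 0.06 and DSG1 with -0.10 and -0.08.

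**Figure D5:**
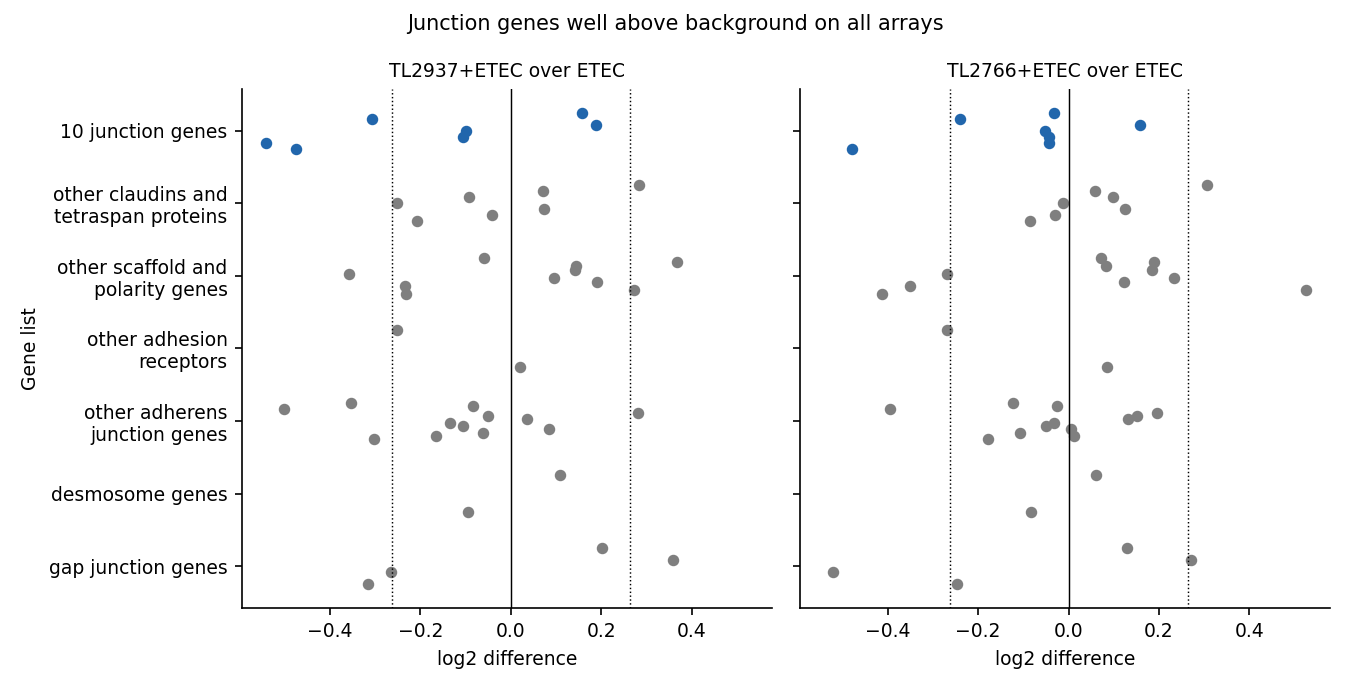
Log2 difference from ETEC of each gene measured on all 3 arrays, for TL2937+ETEC and TL2766+ETEC, by gene list. Dotted lines mark 1.2-fold, blue points are 7 of the 10 junction genes and grey points related genes. The junction genes lie between -0.54 and 0.19 in TL2937+ETEC and between -0.48 and 0.16 in TL2766+ETEC (CLDN4, CDH1 and EPCAM are not drawn).

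Regulators of junctions and of junction genes made up 3 further lists. Of 9 measured junction regulators, 1 was lower and 1 higher by 1.2-fold in TL2937+ETEC, and 0 lower and 1 higher in TL2766+ETEC. Beside these counts, 12.3% of all genes were lower and 7.29% higher in TL2937+ETEC, and 8.82% and 8.13% in TL2766+ETEC. Myosin light chain kinase (MYLK), which tightens the actin ring at the junction, was higher by 0.27 and 0.36 by its brightest probe, but its 9 measured probes ranged from -1.46 to 0.31 in TL2937+ETEC and from -1.24 to 0.42 in TL2766+ETEC, so no single direction can be given. Ezrin (EZR), a membrane to actin linker, differed by -0.27 and -0.17, radixin (RDX) by -0.14 and -0.20, and ARHGEF2 by 0.08 and 0.20. Of 8 epithelial transcription and splicing factors with a probe, 3 were measured on all 3 arrays, among them KLF4 (-0.37 and -0.11) and GRHL2 (0.14 and 0.24), in TL2937+ETEC and TL2766+ETEC. The splicing factor gene ESRP1 was not well above background with any of its 5 probes. Of the repressors of epithelial junction genes, SNAI1 differed by 0.10 and 0.21 and SNAI2 by -0.35 and -0.18, with SNAI2 probes of either sign.

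Endothelial markers differed between the cultures beside these results. Of the 9 markers, 4 were at least 1.2-fold higher and 1 lower in TL2937+ETEC than in ETEC, with a median log2 difference of 0.17, and 4 of 8 were higher in TL2766+ETEC, with a median of 0.38, beside shares of all genes of 7.29% higher and 12.3% lower in TL2937+ETEC and 8.13% higher in TL2766+ETEC. The lower marker was VWF. P-selectin (SELP), a leukocyte-rolling receptor, had 15791 in TL2937+ETEC, 15777 in TL2766+ETEC and 4943 in ETEC, and the angiopoietin receptor gene TEK had 2419, 2189 and 1339.9. VE-cadherin and PECAM1 were within 1.2-fold of ETEC in both. Fibroblast and mesenchymal markers had medians of -0.14 in TL2937+ETEC and -0.10 in TL2766+ETEC, and smooth muscle actin (ACTA2) differed by -0.36 and -0.18. The part of these markers in the junction gene differences was not tested, and in bulk RNA fewer cells of a type cannot be told apart from less RNA per cell.

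CDH1 had the widest range over the 3 arrays, but 1 of its 3 values was not well above background, so no genes of like pattern are given for it. For CLDN1, chosen for this after its values were seen, the genes with the nearest pattern among 4940 measured on all 3 arrays were SLPI, CCBE1 and CD36. Their distances over the 3 centred log2 values were 0.00054, 0.0048 and 0.015, and 67 genes lay within 0.1. With 3 arrays, a close pattern is shared by many genes.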

How the data were processed

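Cy3-labelled RNA (200 ng per sample, per the labels' protocols) of 3 cultures was measured on 3 one-colour arrays, 1 per group, and groups came from the labels. Per the file headers, the authors' scanner files hold the processed intensity of Agilent Feature Extraction 10.7.3.1, from which background had already been taken. The mean signal and local background intensities in the deposited files are uncorrected. The authors' value table held that processed intensity, with differences of at most 0.496%, and is linear and not centred.

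The log2 processed intensity had each array's 75th percentile subtracted. Outlier spots (9, 4 and 8 on the TL2937+ETEC, TL2766+ETEC and ETEC arrays) were left out, and 0 spots were saturated. Scaled intensity is the linear value times 481 (the arrays' 75th percentiles, averaged geometrically). The brightest probe by mean log2 stood for a gene. Of 43603 probes, 13963 were named: 9893 by array name, 2105 by accession, 1855 by gene ID, 70 by synonym and 40 from their description, with a RefSeq table of Sscrofa11.1. The genome build of the array was not given in the sources used here, so no coordinates are printed.

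With 1 array per group, differences were described by size. A gene was called where it differed 1.2-fold and its probe was well above background on both arrays. A probe passing on 1 array got a bound. Members and lists were chosen with earlier results of these data known. Named genes were all 10 members, up to 4 genes per list with the largest difference from ETEC, and the 3 genes nearest in pattern to 1 member. A few genes that this rule names are not reported here. Alternatives were other scalings, normexp (offset 50), the deposited table, 2 changes of the background filter, a gene's probes averaged, outlier spots kept, and calls at 1.5- and 2-fold. Steps were tested on simulated data. Computing used R 4.3.3 with limma 3.58.1 and Python 3.11.15 with matplotlib 3.10.9, pandas 2.3.3 and numpy 2.4.6.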

Additional observations from a re-analysis of the deposited data

How the results depend on the processing

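CLDN1 stayed between -0.49 and -0.43 (log2, TL2937+ETEC over ETEC) and between -0.51 and -0.45 (TL2766+ETEC over ETEC) under 11 alternatives, OCLN between -0.39 and -0.26 and between -0.28 and -0.22, and F11R between 0.18 and 0.25 and between 0.13 and 0.28. No called value turned its direction. Counts below are of junction genes, against 3 lower and 1 higher (TL2937+ETEC over ETEC), 1 and 0 (TL2766+ETEC over ETEC) and 1 and 0 (TL2937+ETEC over TL2766+ETEC). At 1.5- and 2-fold all were 0. For TL2937+ETEC over ETEC the lower count was 2 under some alternatives, among them the 75th percentile of detected probes and normexp. In that comparison the higher count was 0 with normexp, with the mean of all probes and above the median signal, and 2 with no background filter, where the median was -0.027. For TL2766+ETEC over ETEC the lower count was 2 with spike-in scaling, with the mean of all probes and with no filter, and the higher count 1 with the last 2 of these. For TL2937+ETEC over TL2766+ETEC the lower count was 0 with normexp and above the median signal, and 2 with no filter, the higher count 1 with no filter, and the median 0.020 with cyclic loess. In the wider lists, the lower count in TL2937+ETEC over ETEC (7) was 4 with the 75th percentile of detected probes or normexp and 11 with no filter, and the higher count (5) was 3 with cyclic loess or the mean of all probes, 2 with normexp or above the median signal and 12 with no filter. The higher count in TL2766+ETEC over ETEC (3) was 1 with normexp and 8 with no filter. The lower count in that comparison (6) lay between 4 and 9 over the 11 alternatives. Between TL2937+ETEC and TL2766+ETEC (0 and 0), the lower count was 1 with median scaling, cyclic loess or the mean of all probes, 2 with quantile normalization and 6 with no filter, and the higher count 1 with the detected-probe percentile, quantile, cyclic loess or spike-in scaling and 6 with no filter. Fewer or more genes enter under the background filters and normexp shrinks differences of dim probes; the other causes were not tested. The low signal of CLDN3, CLDN4, CLDN7, CDH1 and EPCAM limits what can be said of them. No paired analysis was possible because each group has 1 array and the groups share only the number 1.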
